A study of Mus musculus with 6 samples.

Results

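Yy1 and 9 genes whose products are its relative or bind it were followed through the RNA of mouse muscle satellite cells, the stem cells of skeletal muscle. The 10 genes were taken by symbol from 24067 symbols listed in both expression tables: Yy1 itself; Zfp42, its relative; the adapters Yaf2 and Rybp; Ino80 and Uchl5 of the INO80 complex; Bap1, Hcfc1 and Ogt of the BAP1 complex; and the acetyltransferase Ep300. Polyadenylated RNA was sequenced from satellite cells activated by 36 h of culture in serum-containing F10 medium (ASC), in 1 library labelled iKO for Yy1 and 1 wild-type (WT) library, and from freshly isolated satellite cells (FISC) in 1 iKO and 1 WT library. YY1-bound chromatin from ASC labelled C57, precipitated with a rabbit polyclonal antibody, and 1 input library gave 1 deposited list of 2031 peaks. The sources used here do not give the Cre driver, the deleted exons, the age of the mice or whether animals were pooled. Each group was 1 library, so no difference has a replicate check, and no p-value or standard error was computed.

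YY1 is a C2H2 zinc finger protein that activates some genes and represses others, depending on what it recruits. In muscle precursors it is known for holding differentiation genes silent together with Polycomb proteins. RYBP and YAF2 are small adapters that bind YY1 and the ubiquitin ligases of variant Polycomb repressive complex 1 (PRC1); INO80 is a nucleosome remodeller with YY1 as a subunit; BAP1 is a deubiquitinase that works with the transcriptional cofactor HCFC1 and the sugar transferase OGT and meets YY1 through HCFC1.

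The promoters of 3 members are shown, Yy1 because it is the targeted gene, Ep300 because it was the single member with a listed YY1 peak near a locus end, and Hcfc1 because it was the single member whose promoter held the letters searched. They come from RefSeq (GRCm38.p6), which had a promoter for 8 of the 10 symbols and none for Yaf2 and Rybp. They run from 250 bases before the gene's start to 50 after it. Capitals mark AANATGGC, the letters of a YY1 recognition sequence, on either strand. The windows are chr12:108793047-108793346 (plus strand), chr15:81585964-81586263 (plus strand) and chrX:73966308-73966607 (minus strand).
Yy1: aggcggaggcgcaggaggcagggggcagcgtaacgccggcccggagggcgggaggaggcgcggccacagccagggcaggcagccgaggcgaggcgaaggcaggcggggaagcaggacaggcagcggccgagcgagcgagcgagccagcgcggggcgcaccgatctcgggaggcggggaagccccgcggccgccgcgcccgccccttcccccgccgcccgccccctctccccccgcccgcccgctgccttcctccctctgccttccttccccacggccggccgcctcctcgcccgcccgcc
Ep300: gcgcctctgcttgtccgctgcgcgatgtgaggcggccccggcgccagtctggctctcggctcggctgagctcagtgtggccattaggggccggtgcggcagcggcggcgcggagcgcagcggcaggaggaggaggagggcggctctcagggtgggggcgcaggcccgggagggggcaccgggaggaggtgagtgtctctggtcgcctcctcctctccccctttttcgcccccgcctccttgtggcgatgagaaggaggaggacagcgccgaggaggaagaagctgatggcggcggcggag
Hcfc1: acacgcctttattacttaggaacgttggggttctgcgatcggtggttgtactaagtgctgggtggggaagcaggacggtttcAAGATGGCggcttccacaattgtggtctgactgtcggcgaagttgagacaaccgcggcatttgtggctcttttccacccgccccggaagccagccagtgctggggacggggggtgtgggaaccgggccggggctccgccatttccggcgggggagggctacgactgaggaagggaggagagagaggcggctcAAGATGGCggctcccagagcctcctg
The Hcfc1 window held AAGATGGC as written at bases 83 to 90 and again at bases 275 to 282, the second after the gene's start. Of all 32851 promoters in the table, 6.05% held AANATGGC on either strand. The shorter AANATGG, which lies inside it, was in 16.1% of promoters and, of the 8 members with a promoter, in Hcfc1 alone. The Yy1 window was 81.0% G or C with 42 CpG dinucleotides and the Ep300 window 72.3% with 30, against 62.0% with 21 for Hcfc1 and medians of 52.7% and 7 over the whole table.

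Expression is given as FPKM, fragments per kilobase of the listed transcript scaled to library size, as the authors deposited it. The libraries listed 10657, 10846, 10947 and 10892 genes at 1 FPKM or more in ASC iKO, ASC WT, FISC iKO and FISC WT. Mir762, a microRNA gene, took 39.8% of the summed FPKM of ASC iKO and stood at 0 in the other libraries. Satellite cell markers were present throughout: the 6 markers summed to 799 and 1031 FPKM in ASC iKO and WT and to 1335 and 1310 FPKM in FISC iKO and WT. Pax7, which encodes their defining transcription factor, was at 6.19 FPKM in ASC iKO and 28.3 in ASC WT, and at 78.3 in FISC iKO and 61.8 in FISC WT. Myod1, also taken as an activation marker, held 598 and 698 FPKM of the ASC iKO and WT sums. In FISC iKO and WT it held 558 and 411. Of the other activation markers, Ccnd1 stood at 210 and 313 FPKM and Mki67 at 11.2 and 26.4 in ASC iKO and WT. Myog was listed at 0 in both ASC libraries. In FISC iKO and WT Ccnd1 stood at 18.0 and 33.7 FPKM and Mki67 at 0.618 and 0.771. Myog stood at 9.55 and 8.28 there, so this activation marker was higher in FISC than in ASC. The part of cell state in the results was not tested. The 4 immune markers summed to 14.9 FPKM in ASC iKO and 4.18 in ASC WT, carried by Cd14 and Cd68, with the pan-leukocyte gene Ptprc listed at 0 in both; their part in the results was not tested. The Y-linked gene Ddx3y was listed at 0 in both ASC libraries and stood at 28.3 FPKM in FISC iKO and 62.1 in FISC WT. Xist, the RNA of the inactive X chromosome, stood at 31.2, 97.47, 65.4 and 62.3 FPKM in ASC iKO, ASC WT, FISC iKO and FISC WT; the part of sex in the values of the X-linked Hcfc1 and Ogt was not tested. The endothelial markers summed to at most 5.44 FPKM and the pericyte markers to at most 15.7, while the fibroblast markers summed to 7.73 and 11.8 FPKM in ASC iKO and WT and to 197 and 184 in FISC iKO and WT.

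Yy1 was lower in both iKO libraries, and far more so after activation. It stood at 2.03 FPKM in ASC iKO, against 55.2 FPKM in ASC WT, which is 3.67% of the WT level. In freshly isolated cells it stood at 20.1 FPKM in FISC iKO, against 51.0 FPKM in FISC WT, or 39.5% of the WT level. The iKO library was thus below its WT library in both states, with the ASC iKO value below the FISC iKO value as well. In bulk RNA, fewer cells with the transcript and less transcript per cell cannot be told apart. Ratios below put iKO over WT as log2((FPKM + 1)/(FPKM + 1)), which understates low genes, and cover genes whose higher library reached 1 FPKM; a gene past 2-fold on this scale, here and in every count that follows, is counted as higher or lower, which sets a size and tests nothing. The log2 ratio of Yy1 was −4.21 in ASC, the 6th lowest of 11215 genes, and −1.30 in FISC, the 30th lowest of 11229. The gene lies on chromosome 12 at 110031521 to 110054842 (mm9).

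**Figure D1:**
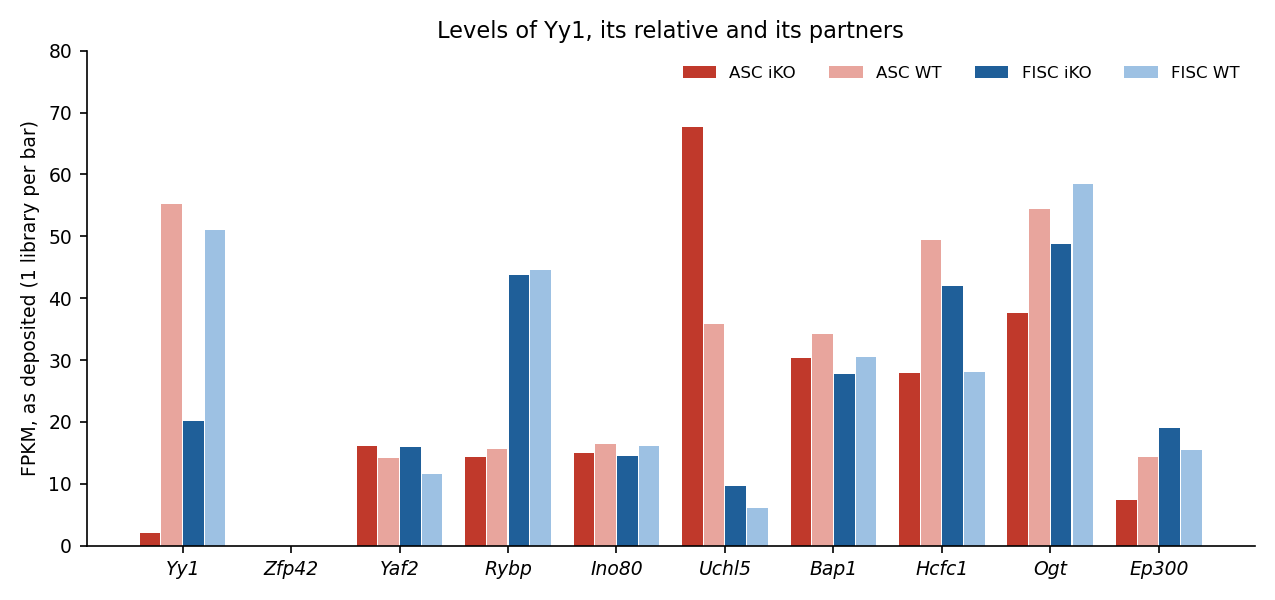
FPKM (linear axis from 0) of the 10 genes in ASC iKO, ASC WT, FISC iKO and FISC WT, 1 library per bar and no error bars. Yy1 stands at 2.03 FPKM in ASC iKO and 55.2 in ASC WT, Uchl5 is the highest bar at 67.7 FPKM in ASC iKO, Rybp is near 44 FPKM only in the FISC libraries, and Zfp42 is listed at 0 in all 4 libraries.

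Of the 10 genes, 9 passed the filter, and Yy1 alone of them was past 2-fold between genotypes in either state. In ASC 1 of 9 was at least 2-fold lower and 0 were higher, where 8.26% of all genes were lower and 8.74% higher (17.0% in either direction). In FISC 1 of 9 was lower and 0 were higher, where 0.721% of all genes were lower and 0.677% higher (1.4% in either direction). Without Yy1 the median log2 ratio of the other 8 measured genes was −0.15 in ASC and 0.13 in FISC, against medians of −0.0025 and −0.0027 over all genes tested. The 8 measured partners of Yy1 were within 2-fold of WT in both states, as were most genes, with single-gene values from −0.87 to 0.90 in ASC.

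**Figure D2:**
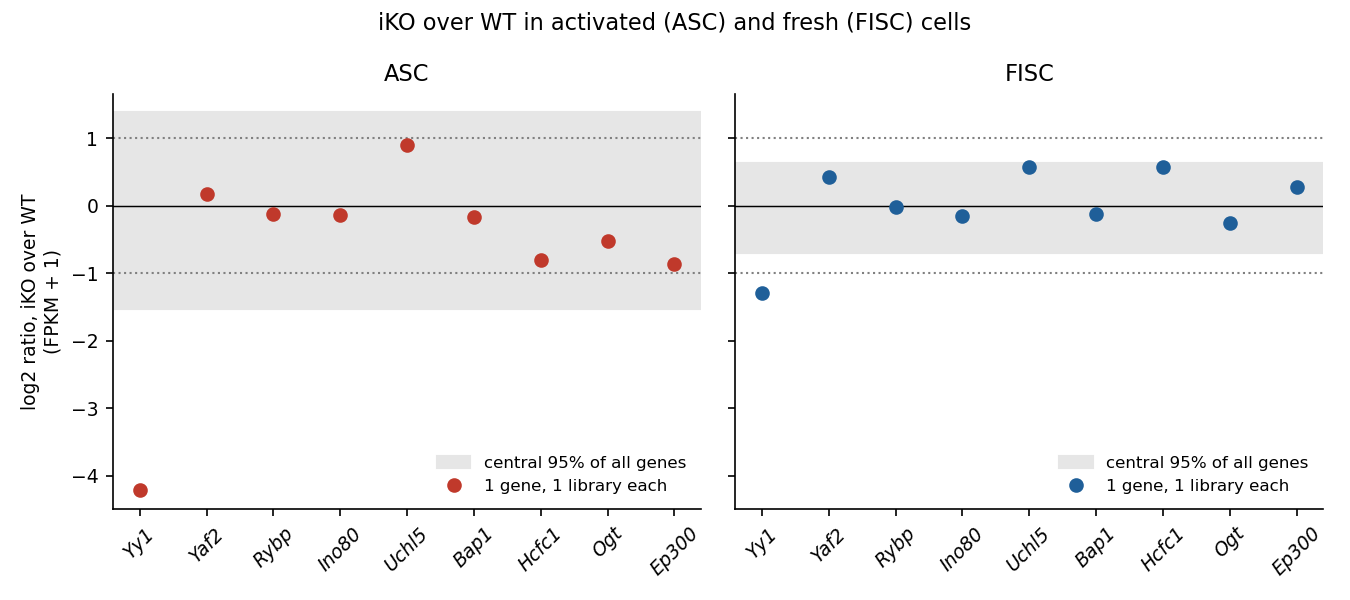
Log2 ratio of FPKM + 1, iKO over WT, for the 9 measured genes in ASC (left) and FISC (right); each point is 1 gene from 1 library per genotype. The grey band is the central 95% of all genes, −1.53 to 1.38 in ASC and −0.70 to 0.64 in FISC, dotted lines mark 2-fold, and Yy1 is the only point outside the band in each panel.

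Neither relative of Yy1 was higher in the iKO libraries. Zfp42, which encodes REX1, a zinc finger protein known as a marker of pluripotent stem cells, was listed at 0 in all 4 libraries. Of 3 other genes of pluripotent cells, Pou5f1 was also listed at 0 in all 4, Nanog stood at 0.109, 0.0362, 0.128 and 0 FPKM in ASC iKO, ASC WT, FISC iKO and FISC WT, and Dppa3 at 0.151 and 0.414 FPKM in ASC iKO and WT and at 0 in both FISC libraries. Yy2, another relative, which arose from a retroposed copy of Yy1, stood at 10.6 FPKM in ASC iKO and 11.5 in ASC WT, and at 4.48 in FISC iKO and 5.15 in FISC WT. Its log2 ratios were −0.11 and −0.17. The table gives Yy2 and Mbtps2 the same locus, so how reads were divided between them is uncertain. With Yy2 nearly level between genotypes, Yy1 was 0.191 times Yy2 in ASC iKO and 4.80 times Yy2 in ASC WT.

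Of the adapters, Rybp was close to WT in both iKO libraries and lower in ASC than in FISC, whereas Yaf2 stood above WT in both iKO libraries, by less than 2-fold. Rybp stood at 14.3 FPKM in ASC iKO and 15.7 in ASC WT, and at 43.8 in FISC iKO and 44.6 in FISC WT. Its log2 ratios, iKO over WT, were −0.12 in ASC and −0.03 in FISC. Both signs depended on the processing, turning to 0.20 in ASC with the trend on locus length removed and to 0.02 in FISC with upper-quartile scaling. Yaf2 stood at 16.1 FPKM in ASC iKO and 14.1 in ASC WT, and at 16.0 in FISC iKO and 11.7 in FISC WT. Its log2 ratios were 0.18 and 0.42, the FISC value above 92.6% of genes. The balance of the adapters differed by state: Rybp was 0.891 times Yaf2 in ASC iKO and 1.11 times in ASC WT, against 2.74 times in FISC iKO and 3.83 times in FISC WT.

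Among 10 genes of the variant PRC1 complexes that hold RYBP or YAF2, 2 were at least 2-fold lower and 0 higher in ASC iKO, where 8.26% of all genes were lower and 8.74% higher, and 0 in either direction in FISC iKO. The list median was −0.52 in ASC and 0.02 in FISC. L3mbtl2, a chromatin reader of the complex that also holds E2F6, stood at 4.77 FPKM in ASC iKO and 16.7 in ASC WT; its listed locus overlaps Chadl. Pcgf3, a ring finger subunit, stood at 8.08 and 25.0 FPKM in ASC iKO and WT. The values are log2 ratios of −1.61 and −1.52. The highest ratios were those of Ring1, a ubiquitin ligase subunit, at 16.2 and 10.7 FPKM, and Pcgf5 at 23.8 and 15.9, both within 2-fold. Their log2 ratios were 0.56 and 0.55. The median of all genes was 0.67 in the locus-length decile of Ring1, the shortest, and −0.42 in that of Pcgf5. Of the SFMBT proteins, methyl-lysine readers that bind YY1, Sfmbt1 stood at 5.21 and 6.64 FPKM, and Sfmbt2 did not reach 1 FPKM in any library.

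In the INO80 complex the core ATPase did not follow Yy1, and the deubiquitinase Uchl5 stood higher in both iKO libraries. Ino80 had 14.9 FPKM in ASC iKO and 16.5 in ASC WT, and 14.4 in FISC iKO and 16.1 in FISC WT. The 4 values lie between 14.4 and 16.5 FPKM, with log2 ratios, iKO over WT, of −0.13 in ASC and −0.15 in FISC, and the ASC value turned to 0.28 with the trend on locus length removed. Uchl5, which also serves the proteasome, had 67.7 FPKM in ASC iKO and 35.9 in ASC WT, and 9.57 in FISC iKO and 6.15 in FISC WT. The log2 ratios of 0.90 and 0.56 were each short of 2-fold and lay above 88.8% of genes in ASC and 96.5% in FISC. In FPKM, a level per length, Uchl5 was the highest of the 10 genes in ASC iKO, where Yy1 was the lowest apart from Zfp42, while in ASC WT Yy1 and Ogt led the order.

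Of 12 other INO80 subunits, 1 was at least 2-fold higher and 0 lower in ASC iKO, a share near the 8.74% of all genes that were higher, with a median log2 ratio of 0.20 in ASC and 0.0048 in FISC. Ino80b, a small subunit, stood at 45.01 FPKM in ASC iKO and 16.0 in ASC WT, and at 7.46 in FISC iKO and 7.15 in FISC WT. Its ASC log2 ratio of 1.44 became 0.77 relative to the median of genes in the same decile of locus length, the shortest. Tfpt followed at 31.8 and 15.5 FPKM in ASC iKO and WT, a log2 ratio of 0.995 on the FPKM + 1 scale that misses the limit, although the FPKM themselves are 2.06-fold apart. The lowest were Actl6a, an actin-related subunit, at 41.0 and 65.0 FPKM, and Ino80d at 3.91 and 5.62.

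In the BAP1 complex the catalytic gene was slightly below WT in both states, whereas Hcfc1 stood on opposite sides of WT in the 2 states. Bap1 had 30.4 FPKM in ASC iKO and 34.2 in ASC WT, and 27.8 in FISC iKO and 30.5 in FISC WT, with log2 ratios of −0.17 and −0.13. The ASC ratio of Bap1 became −0.42 relative to genes of like locus length. Hcfc1 had 28.0 FPKM in ASC iKO and 49.5 in ASC WT, but 42.0 in FISC iKO and 28.0 in FISC WT. It was thus the lower library of the pair in ASC iKO and the higher in FISC iKO. The log2 ratios were −0.80 and 0.57, so the ASC ratio was 1.37 lower than the FISC ratio on the log2 scale, a difference lower than that of all but 3.41% of genes. Its promoter is the one above with AAGATGGC at 2 places, and the nearest YY1 peak summit was 934 kb from the gene. Ogt, the transferase that adds O-linked N-acetylglucosamine to proteins and processes HCFC1, had 37.6 FPKM in ASC iKO and 54.4 in ASC WT, and 48.7 in FISC iKO and 58.5 in FISC WT. It was lower in iKO in both states, by log2 ratios of −0.52 and −0.26, each within 2-fold.

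Of the 8 other BAP1 complex genes 7 passed the filter, and these 7 were below WT in ASC iKO, where 50.2% of all genes were, with 1 at least 2-fold lower, where 8.26% of all genes were. Of the 7, 6 lie in the 3 longest deciles of locus length, and relative to genes of like locus length 5 were below 0 and 2 above. The median was −0.34 in ASC and 0.03 in FISC. Mbd5, a methyl-binding domain protein, stood at 0.971 FPKM in ASC iKO and 3.0 in ASC WT. Its log2 ratio of −1.02 became −0.54 relative to genes of like locus length, in the longest decile, and −0.42 with a pseudocount of 5. Asxl2, a scaffold of the complex, stood at 4.57 and 9.97 FPKM, which are 2.18-fold apart but give a log2 ratio of −0.98 on the FPKM + 1 scale. All genes in its decile of locus length had a median ASC log2 ratio of −0.42. That median was 0.67 in the shortest decile and −0.48 in the longest. Foxk2, a forkhead factor that brings BAP1 to DNA, stood at 26.3 and 28.4 FPKM. Of 7 partners of HCFC1 none was past 2-fold on the FPKM + 1 scale in either state, where 17.0% of all genes were in ASC and 1.4% in FISC. Kmt2a, a histone methyltransferase, had the lowest ASC ratio, with 5.54 FPKM in ASC iKO and 11.8 in ASC WT. Its log2 ratio was −0.97, with the FPKM 2.13-fold apart, and it lies in the same length decile as Asxl2, with the median of −0.42. Next came Sin3a, a corepressor scaffold, at 15.0 and 25.1 FPKM. Thap11 had the highest at 40.2 and 28.9, followed by E2f1, a cell cycle transcription factor, at 24.0 and 22.7. The log2 ratio of Thap11 was 0.46, and it lies in the shortest decile of locus length, with the median of 0.67. In freshly isolated cells E2f1 stood at 2.60 FPKM in FISC iKO and 1.11 in FISC WT, 2.34-fold apart in FPKM and a log2 ratio of 0.77 on the FPKM + 1 scale. Of 3 genes of O-GlcNAc cycling none was past 2-fold in either state, against the same shares of all genes (17.0% in ASC and 1.4% in FISC). Mgea5, the enzyme that removes the sugar OGT adds, stood at 27.6 and 27.8 FPKM in ASC iKO and WT, and at 51.3 and 52.7 in FISC iKO and WT, so the FPKM of Ogt was 1.36 times Mgea5 in ASC iKO and 1.96 times in ASC WT.

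**Figure D3:**
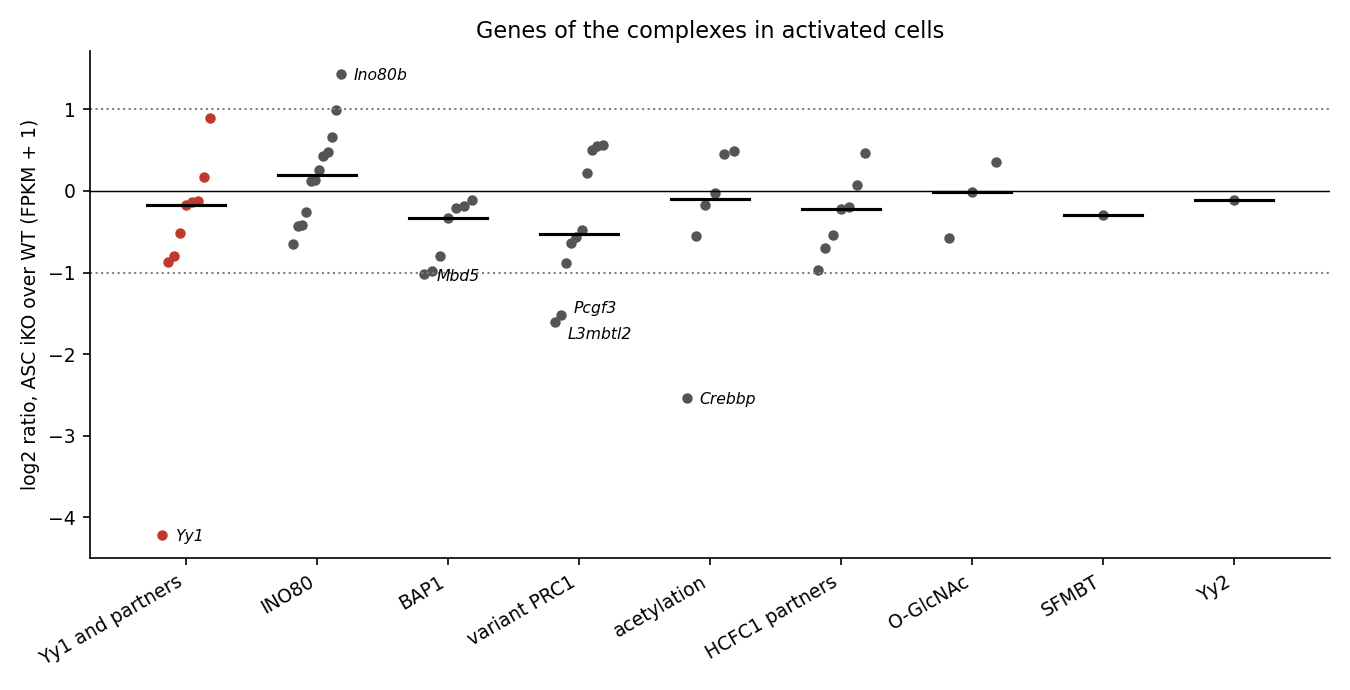
Log2 ratio of FPKM + 1, ASC iKO over ASC WT, for Yy1 and its partners (red) and for the other genes of each complex (grey), 1 point per gene with at least 1 FPKM; black bars are medians and dotted lines mark 2-fold. The named points past 2-fold are Yy1 at −4.21, Crebbp at −2.54, L3mbtl2 at −1.61, Pcgf3 at −1.52, Mbd5 at −1.02 and Ino80b at 1.44.

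Ep300, a histone acetyltransferase recruited as a coactivator and able to acetylate YY1, had 7.42 FPKM in ASC iKO and 14.4 in ASC WT, and 19.0 in FISC iKO and 15.5 in FISC WT. Like Hcfc1 it was the lower of the pair in ASC iKO and the higher in FISC iKO. The log2 ratios were −0.87 and 0.28, a difference of −1.15 between states that became −0.84 relative to genes of like locus length and −0.87 with a pseudocount of 5. Crebbp, its paralog, stood at 1.13 FPKM in ASC iKO and 11.4 in ASC WT, and at 18.7 in FISC iKO and 23.3 in FISC WT. With a log2 ratio of −2.54 Crebbp was the lowest of the 47 other genes of these complexes that passed the filter in ASC, and −2.06 relative to genes of like locus length. Ep300 was 6.58 times Crebbp in ASC iKO and 1.26 times in ASC WT. Among 6 acetylation cofactors 1 was lower and 0 higher past 2-fold in ASC iKO, where 8.26% of all genes were lower and 8.74% higher: the deacetylase genes Hdac1 (39.1 and 57.9 FPKM in iKO and WT), Hdac2 (156 and 111) and Hdac3 (68.6 and 50.01) stayed within it. Over all 49 other genes of these complexes, 47 passed the filter, of which 1 was higher and 4 lower past 2-fold in ASC iKO and 0 in FISC iKO, against the shares of all genes given above. The median log2 ratio of the 47 was −0.19 in ASC and 0.02 in FISC.

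The iKO to WT ratios of the 2 states were set against each other as the ASC ratio minus the FISC ratio. Of the 9 measured genes 3 were past 1 log2 unit and all 3 on the lower side, Yy1 (−2.92), Hcfc1 (−1.37) and Ep300 (−1.15), where 7.92% of all 10251 genes were lower and 8.72% higher (16.6% in either direction). The other 6 lay between −0.26 for Ogt and 0.33 for Uchl5. With 1 library per group these are differences of 2 ratios, and the difference was not tested.

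Rybp was lower and Uchl5 higher in ASC than in FISC in both genotypes. The states also differed in Ddx3y and the fibroblast markers, so activation, sex and cell mix cannot be told apart here. For this comparison ASC was set over FISC of the same genotype after dividing the ASC values by the median ratio of genes at 1 FPKM or more in both, 1.42 in iKO and 1.39 in WT, since the tables may have been normalized separately. After scaling Uchl5 stood at 47.5 FPKM in ASC iKO against 9.57 in FISC iKO, and at 25.8 in ASC WT against 6.15 in FISC WT. The log2 ratios were 2.198 in iKO and 1.91 in WT. Rybp stood at 10.1 scaled FPKM in ASC iKO against 43.8 FPKM in FISC iKO, and at 11.2 in ASC WT against 44.6 in FISC WT, log2 ratios of −2.02 and −1.90. Both genes stayed past 2-fold and kept their direction under every scaling tried.

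Some other members differed more between the genotypes in this comparison. Yy1 had 1.42 scaled FPKM in ASC iKO against 20.1 FPKM in FISC iKO, and 39.6 in ASC WT against 51.0 in FISC WT. The log2 ratios were −3.13 in iKO and −0.36 in WT, and the WT value turned to 0.11 without scaling and to 0.22 with libraries set to the same sum. Hcfc1 had log2 ratios of −1.06 in iKO and 0.33 in WT, and Ep300 of −1.69 and −0.54. The Hcfc1 value in iKO was −0.57 without scaling and −0.93 with a pseudocount of 5, inside 2-fold. Ogt (−0.86 in iKO and −0.57 in WT), Yaf2 (−0.47 and −0.18), Ino80 (−0.43 and −0.41) and Bap1 (−0.37 and −0.30) were within 2-fold. Without scaling Yaf2, Ino80 and Bap1 stood above 0 in both genotypes, so their directions rest on the scaling. So do those of Ogt and Ep300 in WT, which stood at 0.0060 and 0.00066 with equal sums. In iKO both stayed below 0 under every scaling tried, Ogt from −1.545 to −0.36 and Ep300 from −2.27 to −1.25. Of the 9 genes 1 was higher and 4 lower past 2-fold in iKO, where 22.9% of all genes were higher and 27.6% lower (50.5% together), and 1 higher and 1 lower in WT, where 19.7% were higher and 23.5% lower (43.2% together). These values share libraries with the iKO to WT ratios above and are not independent of them.

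**Figure D4:**
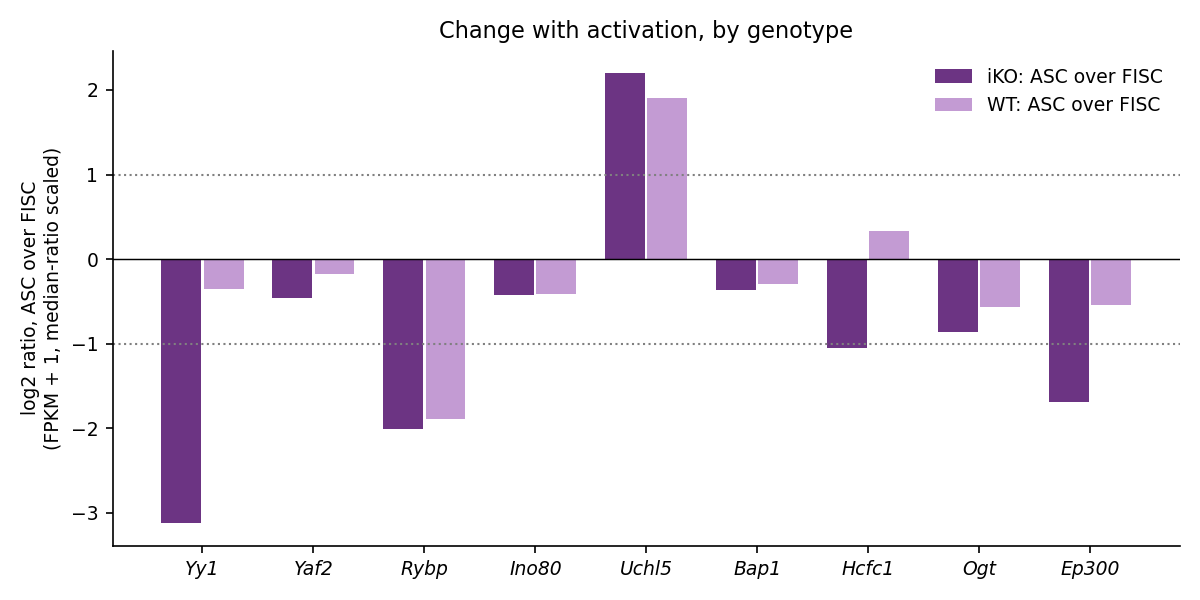
Log2 ratio of FPKM + 1, ASC over FISC after median-ratio scaling, for the 9 measured genes in iKO and WT, 1 library per value and no error bars; dotted lines mark 2-fold. Uchl5 is at 2.198 and 1.91 and Rybp at −2.02 and −1.90 in iKO and WT, while Yy1 (−3.13 and −0.36) and Hcfc1 (−1.06 and 0.33) differ between genotypes.

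YY1 peak summits were set against the locus ends of these genes. A peak summit lay within 2 kb of a locus end for 1 of the 10 genes, Ep300, where the share was 3.62% of all symbols and 6.21% of genes tested in ASC. The Ep300 peak (chr15:81415773-81415914, mm9) had its summit 807 bases before the listed locus start, outside the 300-base promoter shown above if the start is the same in both builds. The authors gave it a fold of 5.01, a score of 58 and a −log10 q of 1.07, and by −log10 p it was tied at place 382 of 2031. The Ep300 gene lies on chromosome 15 at 81416644 to 81482507, on the plus strand in RefSeq. Of the 2031 peaks 171 had a −log10 q of at least 5. With those alone 0 of the 10 genes had one within 2 kb of a locus end, where 0.945% of all symbols did. Among the other 9 genes only Ino80 (chromosome 2, 119198779 to 119303365) held a summit inside its locus, 32.0 kb from the nearer end, with a −log10 q of 0. At 104.6 kb the Ino80 locus was the longest of the 10. The share of all symbols with a summit inside the locus was not computed. The nearest summit to Yy1 was 73.2 kb away, and that to Uchl5 (chromosome 1, 145624408 to 145654596) 128 kb.

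Of the 49 other genes 5 had a summit within 2 kb of a locus end, against 3.62% of all symbols and 6.21% of genes tested in ASC. The strongest by fold was at Zfp143, a zinc finger partner of HCFC1, with a fold of 6.98. Its summit lay 298 bases before the listed start, and RefSeq gives Zfp143 the plus strand. Zfp143 stood at 11.3 FPKM in ASC iKO and 13.0 in ASC WT. At Actr8, an actin-related INO80 subunit, the summit lay 17 bases inside the locus with a fold of 5.53, and the gene stood at 24.9 and 18.2 FPKM. The peak 708 bases from Mgea5 lay 12 bases from an end of the neighbouring Npm3 locus and had a −log10 q of 0.53. Those at Kat2b (1039 bases) and Kdm1b (11 bases) had a −log10 q of 0. Both of these summits lay just inside the listed end, and RefSeq gives both genes the plus strand. Kdm1b and Dek are listed at the same locus. All 5 genes were within 2-fold of WT in ASC iKO, as were most genes: 17.0% of all genes tested were past it in either direction.

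**Figure D5:**
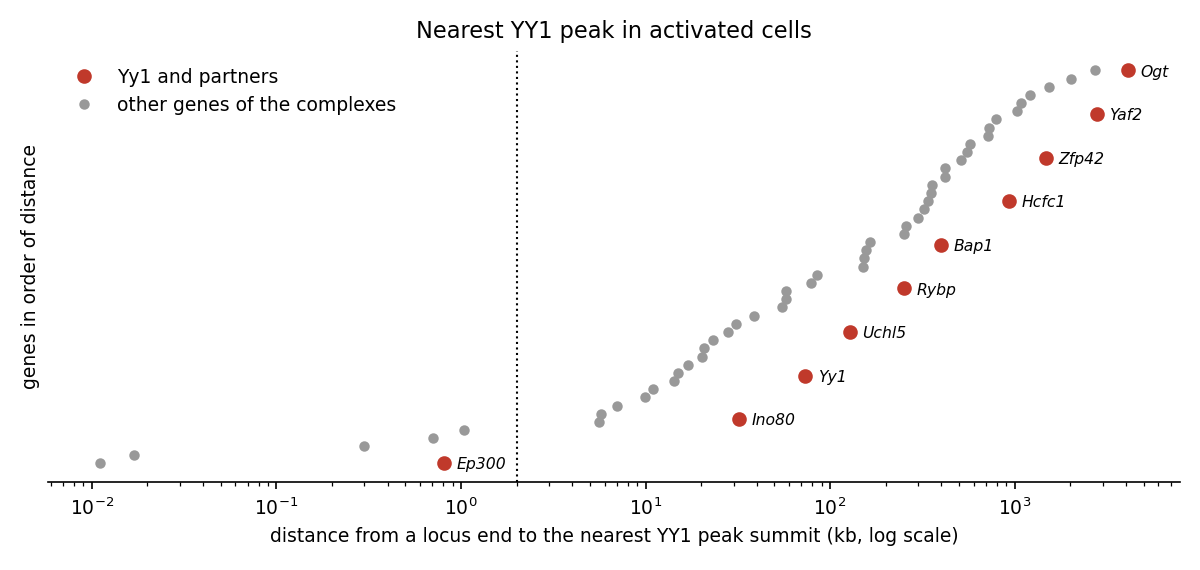
Distance from a gene's nearer locus end to the nearest YY1 peak summit in ASC (kb, log axis) for the 10 genes (red) and the 49 other genes of the complexes (grey), each set spread upward in order of distance. The dotted line marks 2 kb: Ep300 at 0.807 kb and 5 of the grey genes lie left of it, and Yy1 is at 73.2 kb.

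The genes whose pattern over the 4 libraries lay closest to that of Yy1 were found by Euclidean distance on scaled log2(FPKM + 1), centred per gene. The 6462 genes compared, Yy1 included, had at least 5 FPKM in both WT libraries. The 5 nearest were Wasf2, an actin regulator (distance 1.25 log2 units), Slc25a30, a mitochondrial carrier (1.28), Vcl, vinculin (1.31), Ndst1, a heparan sulfate enzyme (1.31), and Mob1a, a Hippo pathway adapter (1.36). Wasf2 stood at 4.93 FPKM in ASC iKO and 40.5 in ASC WT, and at 28.5 in FISC iKO and 32.7 in FISC WT. Like Wasf2 the others were low in ASC iKO alone, with FISC log2 ratios between −0.37 for Ndst1 and −0.09 for Vcl, where Yy1 had −1.30. Of the partners Ep300 came closest, in place 572 at a distance of 2.60, and Uchl5 was farthest, in place 6318 at 5.31.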

How the data were processed

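Polyadenylated RNA was measured in 4 libraries and YY1 binding in 1 immunoprecipitation with 1 input. Per the submitters' processing notes the tools included MACS2 2.1.0, Cufflinks 2.2.1 and TopHat2 and the build was mm9; the notes do not say which tool made which file. The sources used here do not state annotation, strand setting or filters. A column's library follows from its header's genotype and its table's state. Per the file headers the authors deposited FPKM. Total depth is unknown: among genes at 0.3 FPKM or less, the commonest iKO to WT quotient was 1.5 in ASC (19.6% of 1573) and 1 in FISC (16.0% of 1542), so 1 ASC iKO read was worth 1.5 ASC WT reads. The peak list deposited by the authors is in narrowPeak layout; its score equals 10 times the −log10 p, truncated, in all 2031 peaks, and its fold, −log10 q and summit offset are the authors' values. Locus starts count from 0 (8595 of 23133 locus lengths equal RefSeq's this way, 541 the other way) and are printed from 1. The sources used here do not say how the peak list was filtered. The tables carry no strand, so either locus end counted. States were scaled by the median ratio in place of the sum of FPKM, because of Mir762.

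Ratios used a pseudocount of 1, a filter of 1 FPKM in the higher library and 2-fold as the limit, in Python 3.11.15 with pandas 2.3.3 and numpy 2.4.6; matplotlib 3.10.9 drew the figures. The scripts were tested on simulated data. Named were all 10 genes and, of each list, the 2 highest and 2 lowest ASC ratios, those past 2-fold and those with a peak within 2 kb; Npm3, Dek, Mbtps2, Chadl, Mir762, Ddx3y and Sfmbt2 were chosen after their values were seen. The members and lists were chosen with earlier results of these data known. Alternatives were pseudocounts of 0.1 and 5, upper-quartile scaling, other filters, removal of the locus-length trend, other scalings between states, and other windows and thresholds for peaks.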

Additional observations from a re-analysis of the deposited data

Results flagged for a closer look

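In 2 of the 9 measured genes the iKO to WT difference ran in opposite directions in the 2 states, and this difference was not tested, since each group was 1 library. Hcfc1 had a log2 ratio of −0.80 in ASC and 0.57 in FISC. Ep300 had −0.87 in ASC and 0.28 in FISC. Opposite signs were common: 44.4% of all 10251 genes measured in both states had them, so 22.2% of the 9 is no excess.

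The same held, also untested, for 25 of the 47 measured other genes of the same complexes, 53.2% of them, of which the 13 that the naming rule covers are given here. No minimum size was set for a sign, so values next to 0 are included. Below WT in ASC iKO and above it in FISC iKO were Pcgf3 (−1.52 and 0.089), Asxl2 (−0.98 and 0.25), Kmt2a (−0.97 and 3.5e-05), Sin3a (−0.70 and 0.17), Gfpt1 (−0.58 and 0.041), Hdac1 (−0.55 and 0.10), Ino80d (−0.43 and 0.11), Foxk2 (−0.11 and 0.24) and Kat2b (−0.030 and 0.072), as log2 ratios in ASC and FISC. Above WT in ASC iKO and below it in FISC iKO were Tfpt (0.995 and −0.18), Pcgf5 (0.55 and −0.0065), Hdac2 (0.49 and −0.038) and Uap1 (0.36 and −0.56). Of these 13 Pcgf3 alone was past 2-fold in either state on the FPKM + 1 scale.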

How the results depend on the processing

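No paired analysis was possible because each group was 1 library, and for the same reason no library could be left out. The log2 ratio of Yy1, iKO over WT, stayed past 2-fold in every alternative run, from −4.70 to −3.10 in ASC and from −1.34 to −1.16 in FISC. The count of members past 2-fold in activation of iKO was 5, and 9 with the states set to the same sum of FPKM, where Mir762 holds 39.8% of the ASC iKO sum. The count of members with a near peak was 1, and 0 with a −log10 q of at least 5, where 0.945% of all symbols had one. The median log2 of all genes in WT activation shifted by 0.10 with upper quartiles, by 0.44 as deposited and by 0.54 with equal sums; in iKO the last 2 gave 0.46 and −0.61. Counts over all genes moved by more than 1.5 times: 76 higher and 81 lower in FISC became 194 and 217 with a pseudocount of 0.1 and 26 and 35 with 5, and 43 were higher with a filter at 5 FPKM; 980 higher and 926 lower in ASC became 576 and 306 with a pseudocount of 5, and 631 were higher with the locus-length trend removed; for the difference between states 894 and 812 became 551 and 255 with a pseudocount of 5, and 488 were lower with the filter at 5 FPKM. In activation 2289 higher and 2737 lower in WT became 1273 and 1633 with a pseudocount of 5 and 3667 higher as deposited, 4041 with equal sums and 4037 without small RNA genes; 2653 and 3203 in iKO became 1712 and 1846, with 3980 higher as deposited and 1335 with equal sums. FPKM carries no depth, so no counting interval could be given, and low genes are the least certain.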
